A study of Mus musculus with 2 samples.

Results

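In a spatial transcriptomic section of an obstructed mouse kidney treated with SH045, 79 of 788 spots were taken as connecting tubule spots, and they are described here against the remaining 709. The spots were chosen by the summed UMIs (distinct captured RNA molecules) of 3 connecting tubule genes, Trpv5, S100g and Calb1, divided by all UMIs of the spot. Spots with at least 1000 UMIs were scored, and those at or above the 90th percentile of the score, 601 per 1000000 UMIs, were the connecting tubule spots. The whole series holds 1466 spots on 2 sections.

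Per the labels, both sections came from kidneys of C57BL/6 mice harvested on day 7 after unilateral ureteral obstruction, in which 1 ureter is tied off. The section described here is from a mouse given SH045, and the other is from a mouse given vehicle and is called the section labelled Vehicle. SH045 (larixyl N-methylcarbamate) blocks the cation channel TRPC6, and the study asks what TRPC6 inhibition does in the obstructed kidney. Frozen tissue was cut at 10 µm and placed on 10x Genomics Visium slides, whose barcoded spots capture polyadenylated RNA from the tissue above them. Each treatment is 1 section of 1 mouse, and contralateral kidneys and single-cell data of the wider study are not analysed here.

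The connecting tubule joins the distal convoluted tubule to the collecting duct and is a main site of hormone-controlled calcium reabsorption. Calcium enters its cells through the apical channel TRPV5, is carried across the cytosol by the binding proteins calbindin-D28k (Calb1) and calbindin-D9k (S100g), and leaves through the basolateral sodium-calcium exchanger NCX1 (Slc8a1) and calcium pumps. Vitamin D and parathyroid hormone raise this transport. The same segment reabsorbs sodium through the aldosterone-sensitive channel ENaC and contains acid-base transporting intercalated cells among its own cells.

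Promoter sequences are shown for the channel that lets calcium in, one of the carriers and the exchanger that lets it out, because these mark the ends of the transport path. They are from RefSeq on GRCm38.p6, run from 250 bases before to 50 after the annotated start, and are written in the direction of the gene. The Trpv5 window is chr6:41680674-41680973, the S100g window chrX:162964550-162964849 and the Slc8a1 window chr17:81738338-81738637, all on the minus strand. Capitals mark matches to 2 motifs, each searched on both strands. One is TATAAA, the usual core of the box upstream of a start site. The other, bound by zinc finger factors of the family of Gata2 and Gata3, is AGATAA.
Trpv5: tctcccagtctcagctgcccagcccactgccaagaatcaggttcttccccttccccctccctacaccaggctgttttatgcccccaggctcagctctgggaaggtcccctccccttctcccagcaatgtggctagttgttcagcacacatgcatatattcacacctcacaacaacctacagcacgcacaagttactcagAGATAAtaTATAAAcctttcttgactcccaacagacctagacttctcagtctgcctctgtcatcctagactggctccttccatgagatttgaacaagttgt
S100g: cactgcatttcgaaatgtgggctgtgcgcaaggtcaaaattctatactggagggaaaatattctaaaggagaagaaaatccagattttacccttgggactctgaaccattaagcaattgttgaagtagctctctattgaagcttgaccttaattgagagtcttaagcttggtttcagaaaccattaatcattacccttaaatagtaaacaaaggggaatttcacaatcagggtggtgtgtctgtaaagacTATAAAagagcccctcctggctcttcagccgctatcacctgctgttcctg
Slc8a1: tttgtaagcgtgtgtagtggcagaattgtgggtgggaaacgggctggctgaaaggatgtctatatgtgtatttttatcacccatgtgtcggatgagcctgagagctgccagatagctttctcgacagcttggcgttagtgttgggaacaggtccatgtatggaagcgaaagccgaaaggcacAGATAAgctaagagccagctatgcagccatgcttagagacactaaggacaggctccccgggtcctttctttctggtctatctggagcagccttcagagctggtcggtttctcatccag
Of 32851 mouse promoter windows of the same length, 13.6% held TATAAA and 11.2% held AGATAA. Trpv5 held 1 match to each, with AGATAA at position 200 and TATAAA at position 208 of the window. S100g held TATAAA alone, at position 251, which is the annotated start. Slc8a1 held AGATAA alone, at position 183. A match is a description of letters and not evidence of a bound factor. Calb1 is named only.

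The 79 connecting tubule spots held 2437470 UMIs and the remaining 709 held 19950053. A connecting tubule spot had a median of 30493 UMIs (12385 to 72340), against 26933 (2545 to 62792) in the remaining spots. Median genes per spot were 7322 in connecting tubule and 6894 in remaining spots, and mitochondrially encoded genes took 4.42% of UMIs in connecting tubule and 4.22% in remaining spots. Depth was thus somewhat higher in the connecting tubule spots. Against remaining spots matched on UMIs 273 genes were higher, and with every spot thinned to 5000 UMIs before scoring 170 were, against 257 without either step, but thinning also chose 111 spots, of which 66 were in the reported set. The section labelled Vehicle stood apart. It held 4327613 UMIs in 676 spots against 22388623 in 790 for SH045, its tissue flag marks 1210 positions of which 570 are in its matrix, and its levels of the tubular injury genes Havcr1 and Lcn2 were at most 2.32 CPM in either set of its spots, against at least 566 CPM in either set of the SH045 spots. Both genes are known to rise in the obstructed kidney, so these levels go against the label of obstruction for that section, and what its values stand for beside those of SH045 is in doubt. Apart from the paragraphs that name it, every value below was computed without it.

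A spot covers several cells of different types, and in summed RNA fewer cells of a type and less RNA per cell cannot be told apart. With 1 section there is no test: spots are not replicates, and the same counts chose the spots. Levels are CPM (UMIs per 1000000 of all UMIs summed over the spots of a set), and log2 differences are of log2(CPM + 1), connecting tubule minus remaining spots. The 95% intervals are exact and cover counting error only. Calls were made on that scale at a difference of 1.5-fold in either direction, over the 10200 genes with at least 10 CPM over the section. By this rule 257 genes were higher (2.52% of those tested) and 462 lower (4.53%). The direction also held in each of 4 position blocks of the section for 195 (1.91%) and 290 (2.84%) of them. The median log2 difference of all tested genes was -0.0020.

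The 3 defining genes chose the spots, so their levels are given as a description. Trpv5 stood at 308 CPM in connecting tubule spots and 45.5 CPM in the remaining spots, with a spot range of 13.8 to 688 (median 284) against 0 to 418 (median 24.96). S100g stood at 779 CPM in connecting tubule and 80.7 CPM in remaining spots, ranging from 38.3 to 2800 (median 585) against 0 to 576 (median 53.6). Calb1 stood at 122 CPM in connecting tubule and 18.05 CPM in remaining spots, ranging from 0 to 980 (median 72.1) against 0 to 414 (median 0). No single gene separated the sets. Of the 3, S100g gave the most UMIs to the connecting tubule spots, 1898, against 751 for Trpv5 and 297 for Calb1. All 3 genes were detected in 70 of the 79 spots and 2 of them in the other 9, which had no Calb1 UMI, while 143 remaining spots also had all 3 and 104 had none. A connecting tubule spot carried 8 to 119 UMIs of the 3 genes (median 28), against 0 to 27 (median 3) in a remaining spot. Around the threshold the scores were continuous: the 3 lowest connecting tubule spots had 602, 609 and 610 per 1000000 UMIs, and the 3 highest remaining spots had 600.0, 599.7 and 599.1.

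Each defining gene was also measured in spots chosen by the other 2 alone, a readout that the choice did not use. Trpv5 was then at 241 CPM in 79 chosen spots and 53.4 CPM in the others, a fold of 4.52 (4.08 to 5.002). S100g was at 646 CPM in the spots chosen by Trpv5 and Calb1 and 98.98 CPM in the others, a fold of 6.53 (6.10 to 6.98). Calb1 was at 114 CPM in the spots chosen by Trpv5 and S100g and 19.0 CPM in the others, a fold of 5.97 (5.10 to 6.99). The apical channel and both calcium carriers were therefore each higher where the other 2 were high. Of the 79 spots chosen in this way, 64, 61 and 75 were also in the set chosen by all 3 genes. Within single blocks the folds ran from 3.12 to 10.7 for Trpv5, from 4.46 to 33.5 for S100g and from 3.17 to 12.1 for Calb1, and the block with the highest Trpv5 and S100g folds held 3 and 1 chosen spots.

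The connecting tubule spots lay near the rim of the section and close to each other. Their median distance from the tissue edge was 3 grid steps, against 4 for the remaining spots, and the farthest connecting tubule spot lay 7 steps in, against 11 for the remaining spots. Within 3 steps of the edge lay 50 of 79 connecting tubule spots, 63.3% (51.7% to 73.9%), against 290 of 709 remaining spots, 40.9% (37.3% to 44.6%). At least 1 other connecting tubule spot touched 70 of the 79, 88.6% (79.5% to 94.7%), whereas 176 of 709 remaining spots touched one, 24.8% (21.7% to 28.2%). Those intervals are exact binomial ones and treat neighbouring spots as independent, which they are not. The spots formed 20 patches, the largest of 18 spots, and 9 of the patches were single spots. The position blocks held 29, 17, 30 and 3 of them, so values within the fourth block rest on 3 spots.

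**Figure D1:**
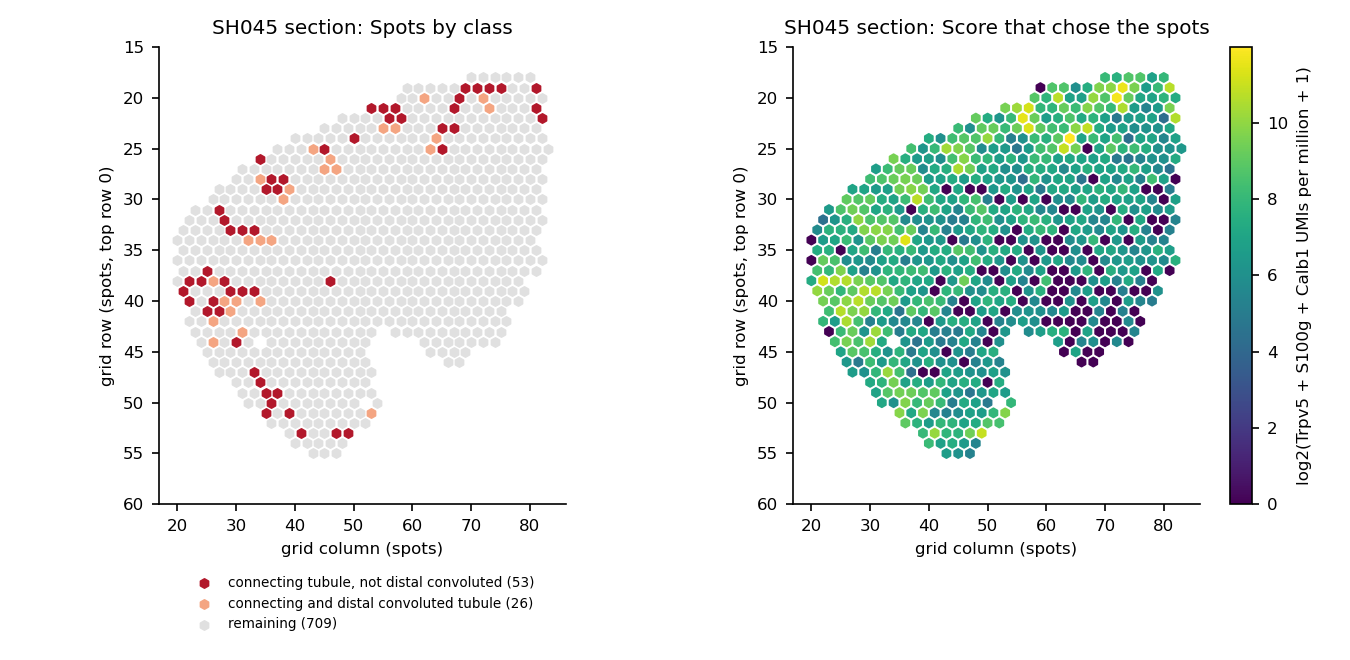
Positions of the scored spots of the SH045 section on the slide grid. The left panel colours the 79 connecting tubule spots, 26 of them also in a distal convoluted tubule set described further on, apart from the 709 remaining ones, and the right panel colours every spot by the log2 of its score. The connecting tubule spots form 20 patches, and 50 of them lie within 3 grid steps of the tissue edge.

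Some genes of calcium handling that the rule did not use were higher in the same spots. The exchanger Slc8a1 (chromosome 17, 81373105 to 81738387) had the highest log2 difference of the 131 genes that qualified for naming as higher in all 4 blocks. It ranged from 0 to 514 CPM over connecting tubule spots (median 183), against 0 to 369 CPM over the remaining spots (median 23.5). The ranges overlapped, but Slc8a1 was missing from only 2 of 79 connecting tubule spots and from 333 of 709 remaining ones. Summed, it stood at 191 CPM in connecting tubule and 37.9 CPM in remaining spots, a fold of 5.05 (4.49 to 5.67), with log2 differences of 2.03, 2.73, 1.96 and 2.87 in the blocks. Klk1, which encodes tissue kallikrein, a peptidase secreted by the connecting tubule, was spread more widely, from 0 to 5565 CPM (median 321) against 0 to 2859 CPM (median 48.7). Its sums were 548 CPM in connecting tubule and 116 CPM in remaining spots, a fold of 4.73 (4.42 to 5.06). One spot held 11.9% of the Klk1 UMIs of the connecting tubule spots. Klk1 has near-identical relatives in the mouse genome, so its count is uncertain.

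Of the 17 other genes on the list of distal calcium and magnesium handling, 13 were measured (at least 10 CPM over the section), 6 were higher, none lower and 7 within 1.5-fold, against the background of 2.52% higher over all genes. The median log2 difference of the 13 was 0.50, against -0.0020 over all genes. The summed level of the 17 was 1953 CPM in connecting tubule and 939 CPM in remaining spots, a fold of 2.08 (2.01 to 2.15). Klk1, whose count is uncertain, gave 548 of the 1953 CPM, and the fold without it was not computed. Besides Slc8a1 and Klk1, the higher ones were Trpv6, Atp2b4, Kl and Pth1r. Trpv6, the second epithelial calcium channel, stood at 39.4 CPM in connecting tubule and 18.2 CPM in remaining spots (log2 difference 1.07). Its difference lay between 0.16 and 1.88 in the blocks, so its size varied with position. Atp2b4, a plasma membrane calcium pump, stood at 43.1 CPM in connecting tubule and 17.4 CPM in remaining spots (1.26). Kl, which encodes klotho, the co-receptor for the phosphate hormone FGF23, stood at 213 CPM in connecting tubule and 80.4 CPM in remaining spots (1.39). Kl was detected in all but 1 of the connecting tubule spots, with a median of 202 CPM, against 54.9 CPM in the remaining spots. The parathyroid hormone receptor Pth1r stood at 559 CPM in connecting tubule and 345 CPM in remaining spots (0.70). Its spot ranges nearly coincided, at 107 to 1250 CPM in connecting tubule and 0 to 1256 CPM in remaining spots.

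The other pump and the hormone enzymes of this list differed less. Atp2b1, the widely expressed calcium pump, stood at 74.3 CPM in connecting tubule and 76.1 CPM in remaining spots (-0.04). The vitamin D receptor Vdr stood at 98.5 CPM in connecting tubule and 74.1 CPM in remaining spots (0.40) and the vitamin D 24-hydroxylase Cyp24a1 at 15.2 CPM in connecting tubule and 22.3 CPM in remaining spots (-0.53). Among magnesium genes, the channel gene Trpm6 stood at 15.6 CPM in connecting tubule and 10.7 CPM in remaining spots (0.50), its relative Trpm7 at 66.9 CPM in connecting tubule and 62.1 CPM in remaining spots (0.11) and the transporter gene Cnnm2 at 43.1 CPM in connecting tubule and 30.6 CPM in remaining spots (0.48). Egf, whose product stimulates magnesium uptake in the distal convoluted tubule, stood at 32.0 CPM in connecting tubule and 38.7 CPM in remaining spots (-0.27). Pvalb, Atp2b2, Cyp27b1 and Casr did not reach 10 CPM over the section, and Pvalb, an early distal convoluted tubule marker, had 1 UMI in all 79 spots.

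**Figure D2:**
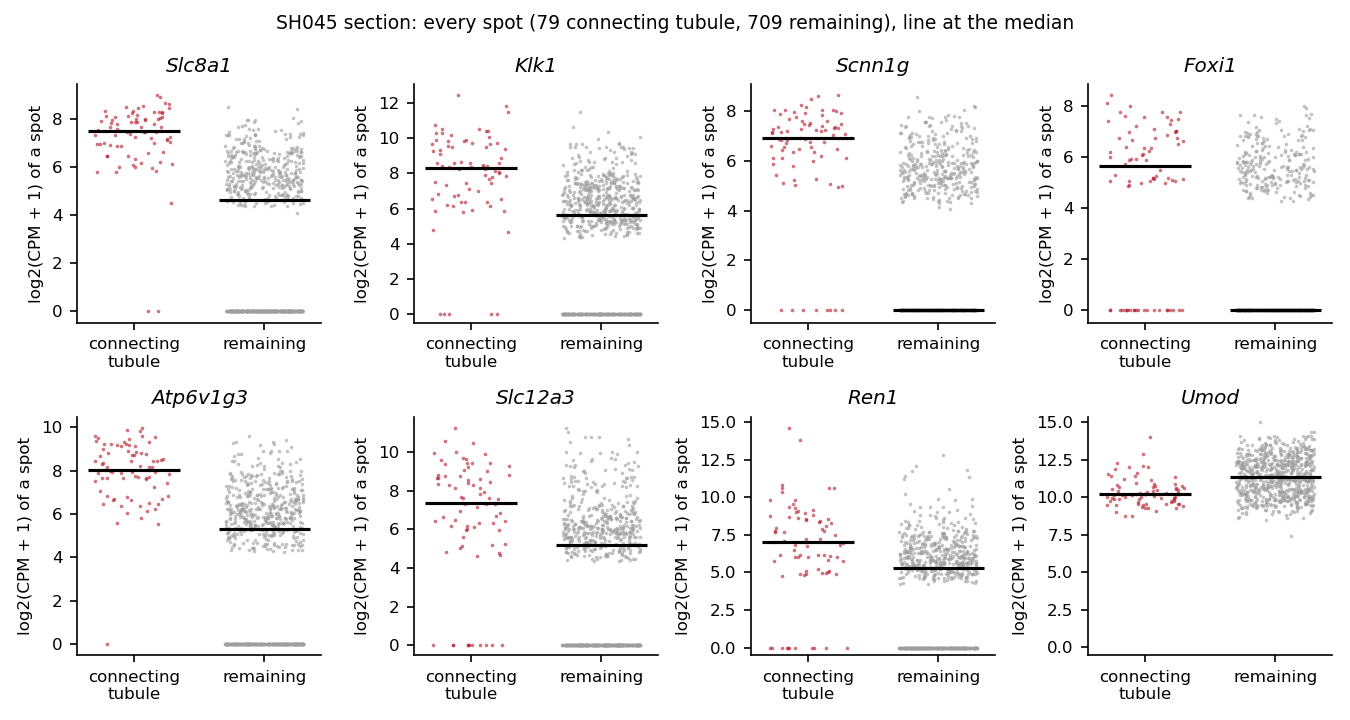
Level of 8 genes in every scored spot of the SH045 section, as log2(CPM + 1), connecting tubule spots on the left of each panel and remaining spots on the right, with a line at the median. The ranges overlap in every panel. The medians of Slc8a1, Klk1, Scnn1g, Foxi1, Atp6v1g3, Slc12a3 and Ren1 are higher and that of Umod is lower in the connecting tubule spots.

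All 3 subunits of the sodium channel ENaC were higher. Scnn1g (chromosome 7, 121734420 to 121768482) ranged from 0 to 396 CPM (median 119) over connecting tubule spots and from 0 to 378 CPM (median 0) over the remaining spots. It had no UMI in 8 of 79 connecting tubule spots and in 370 of 709 remaining spots. Its sums were 135 CPM in connecting tubule and 33.5 CPM in remaining spots, a fold of 4.04 (3.53 to 4.62). Scnn1b stood at 174 CPM in connecting tubule and 60.2 CPM in remaining spots (log2 difference 1.52) and Scnn1a at 103 CPM in connecting tubule and 47.5 CPM in remaining spots (1.11). Hsd11b2, the enzyme that keeps cortisol-like steroids off the aldosterone receptor, stood at 275 CPM in connecting tubule and 134 CPM in remaining spots (1.03). Those were the 4 higher genes of the 9 measured on the 11-gene list of aldosterone-sensitive sodium and potassium transport (background 2.52%). None was lower, and the median was 0.20. The other 5 were the potassium channel gene Kcnj1 (connecting tubule 107, remaining 93.0 CPM), the ubiquitin ligase gene Nedd4l (connecting tubule 80.4, remaining 77.2 CPM), the channel-activating protease gene Prss8 (connecting tubule 163, remaining 173 CPM), Tsc22d3 (connecting tubule 78.0, remaining 87.6 CPM) and the aldosterone-induced kinase gene Sgk1 (connecting tubule 88.6, remaining 109 CPM). Channel subunits and Hsd11b2 were thus called, and the regulator genes Sgk1 and Tsc22d3 were not. The mineralocorticoid receptor gene Nr3c2 and Kcnma1 were below 10 CPM. The summed level of the list was 1212 CPM in connecting tubule and 821 CPM in remaining spots, a fold of 1.48 (1.42 to 1.54).

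Of the 11 measured genes on the 12-gene list of distal sodium chloride transport, 5 were higher (background 2.52%) and none was lower. The median log2 difference was 0.47. Slc12a3, the thiazide-sensitive cotransporter of the distal convoluted tubule, ranged from 0 to 2446 CPM (median 162) over connecting tubule spots and from 0 to 2468 CPM (median 35.8) over the remaining ones. Its range was as wide in one set as in the other, and its sums were 306 CPM in connecting tubule and 109 CPM in remaining spots (1.48). Bsnd, which encodes barttin, stood at 50.5 CPM in connecting tubule and 14.3 CPM in remaining spots (1.75). Kcnj10, a basolateral potassium channel gene, stood at 59.1 CPM in connecting tubule and 20.8 CPM in remaining spots (1.47), whereas its partner Kcnj16 stood at 342 CPM in connecting tubule and 315 CPM in remaining spots (0.12). Wnk4, a kinase that regulates Slc12a3, stood at 62.4 CPM in connecting tubule and 37.4 CPM in remaining spots (0.72), but its difference was -0.21 in block 3. Wnk1 stood at 203 CPM in connecting tubule and 147 CPM in remaining spots (0.47), and the kinases Stk39 and Oxsr1, Cul3 and Ppp1r1a were between -0.28 and 0.13. Klhl3 did not reach 10 CPM. The list summed to 1628 CPM in connecting tubule and 988 CPM in remaining spots, a fold of 1.65 (1.59 to 1.71). None of the 6 sodium pump genes was called (median 0.20).

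**Figure D3:**
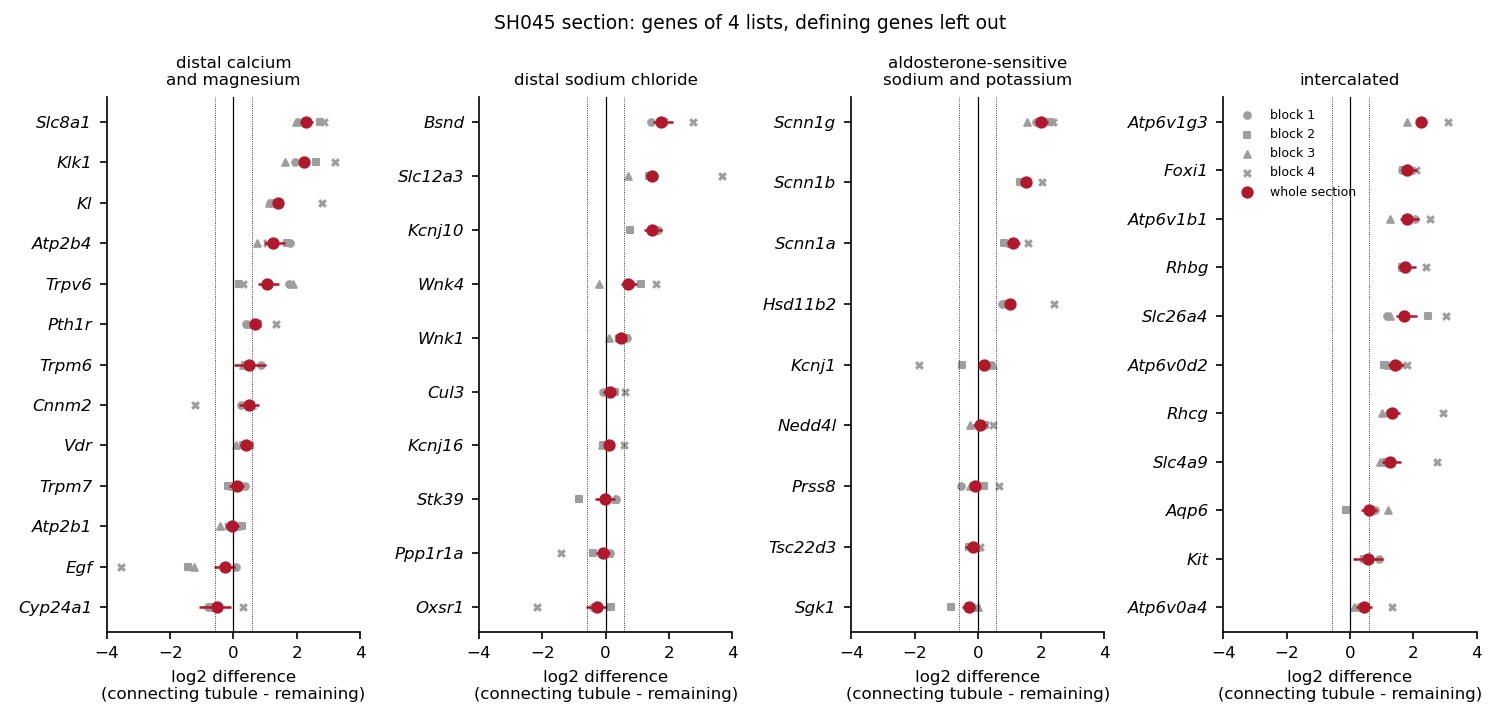
Log2 difference, connecting tubule minus remaining spots of the SH045 section, for genes of 4 lists without the 3 defining genes. Red points are the whole section with the exact 95% counting interval of the fold (taken without the pseudocount), grey symbols are the 4 position blocks, and dotted lines mark 1.5-fold. Slc8a1, Bsnd, Scnn1g and Atp6v1g3 are at the top of the 4 panels.

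Intercalated cell genes were also higher. Of the 14 listed, 11 were measured, 9 were higher (background 2.52%), none was lower, and the median log2 difference was 1.43. Atp6v1g3, a subunit of the proton pump (chromosome 1, 138273738 to 138289462), ranged from 0 to 1014 CPM (median 260) over connecting tubule spots, against 0 to 766 CPM (median 39.1) over the remaining spots. It was missing from 1 connecting tubule spot and 257 remaining spots, and stood at 338 CPM in connecting tubule and 71.3 CPM in remaining spots in sum, a fold of 4.75 (4.35 to 5.17). Foxi1, the transcription factor that specifies intercalated cells, stood at 74.7 CPM in connecting tubule and 20.6 CPM in remaining spots, a fold of 3.63 (3.03 to 4.34), and had no UMI in 22 of the 79 spots. The bicarbonate exchanger gene Slc26a4 (pendrin), a marker of the non-alpha type, stood at 44.3 CPM in connecting tubule and 12.8 CPM in remaining spots (1.71). The ammonia transport genes Rhbg and Rhcg were higher as well. Rhbg stood at 64.0 CPM in connecting tubule and 18.3 CPM in remaining spots (1.75) and Rhcg at 105 CPM in connecting tubule and 41.0 CPM in remaining spots (1.34). Atp6v1b1, Atp6v0d2, Slc4a9 and Aqp6 were higher by 1.81, 1.43, 1.26 and 0.59 on the log2 scale, while Atp6v0a4 (0.44) and Kit (0.55) were within 1.5-fold. Slc4a1, the alpha-type exchanger gene, was below 10 CPM over the section, with 9.85 CPM in connecting tubule spots and 2.96 CPM in the remaining spots. All 14 genes had UMIs in both sets. Their sum per spot ran from 143 to 2282 CPM (median 877) in connecting tubule spots and from 0 to 2301 CPM (median 228) in the remaining spots, so that no connecting tubule spot lacked them. The part that intercalated cells have in the other differences was not tested.

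The principal cell markers of the collecting duct gave a mixed picture, with 3 of 8 measured genes higher and 2 lower (background 2.52% and 4.53%). The transcription factor genes Tfcp2l1 (connecting tubule 345, remaining 156 CPM, 1.14) and Gata3 (connecting tubule 37.7, remaining 18.3 CPM, 1.01) and the basolateral water channel gene Aqp3 (connecting tubule 21.3, remaining 13.8 CPM, 0.59) were higher. Aqp2, the vasopressin-regulated water channel, ranged from 0 to 851 CPM (median 48.9) over connecting tubule spots and from 0 to 4447 CPM (median 76.9) over the remaining spots. It stood at 88.6 CPM in connecting tubule and 177 CPM in remaining spots, a log2 difference of -0.99, and was lower in all 4 blocks, but with spots scored without S100g it was 0.23. The direction of Aqp2 therefore depended on which genes chose the spots. Aqp4, another basolateral water channel gene, stood at 2.05 CPM in connecting tubule and 11.6 CPM in remaining spots (-2.05). The vasopressin receptor gene Avpr2 (connecting tubule 36.5, remaining 26.2 CPM, 0.47), Fxyd4 (connecting tubule 94.0, remaining 106 CPM, -0.17) and Ehf (connecting tubule 27.1, remaining 31.0 CPM, -0.19) were within 1.5-fold. The list summed to 654 CPM in connecting tubule and 545 CPM in remaining spots.

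Along the whole range of the score the genes followed different courses. Slc8a1 stood at 18.7 CPM in bins 1 and 2 of 10 score bins of equal size, at 59.1 CPM in bin 8, at 97.6 CPM in bin 9 and at 191 CPM in bin 10, which is the connecting tubule set. Scnn1g followed at 13.6, 57.3, 87.5 and 135 CPM, and Atp6v1g3 at 44.9, 103, 181 and 338 CPM. Klk1 stood at 60.6, 147, 205 and 548 CPM, with the main step between bins 9 and 10. Those 4 genes were highest in the bin that holds the connecting tubule spots. Aqp2 instead was highest in bin 8, at 305 CPM, followed by 203 CPM in bin 9 and 88.6 CPM in bin 10. Umod, the main secreted protein of the thick ascending limb, stood at 4246, 3289, 1735 and 1599 CPM in bins 1 and 2, 8, 9 and 10. Spots just under the threshold thus carried intermediate levels of the calcium and sodium genes, and the set has no sharp border.

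**Figure D4:**
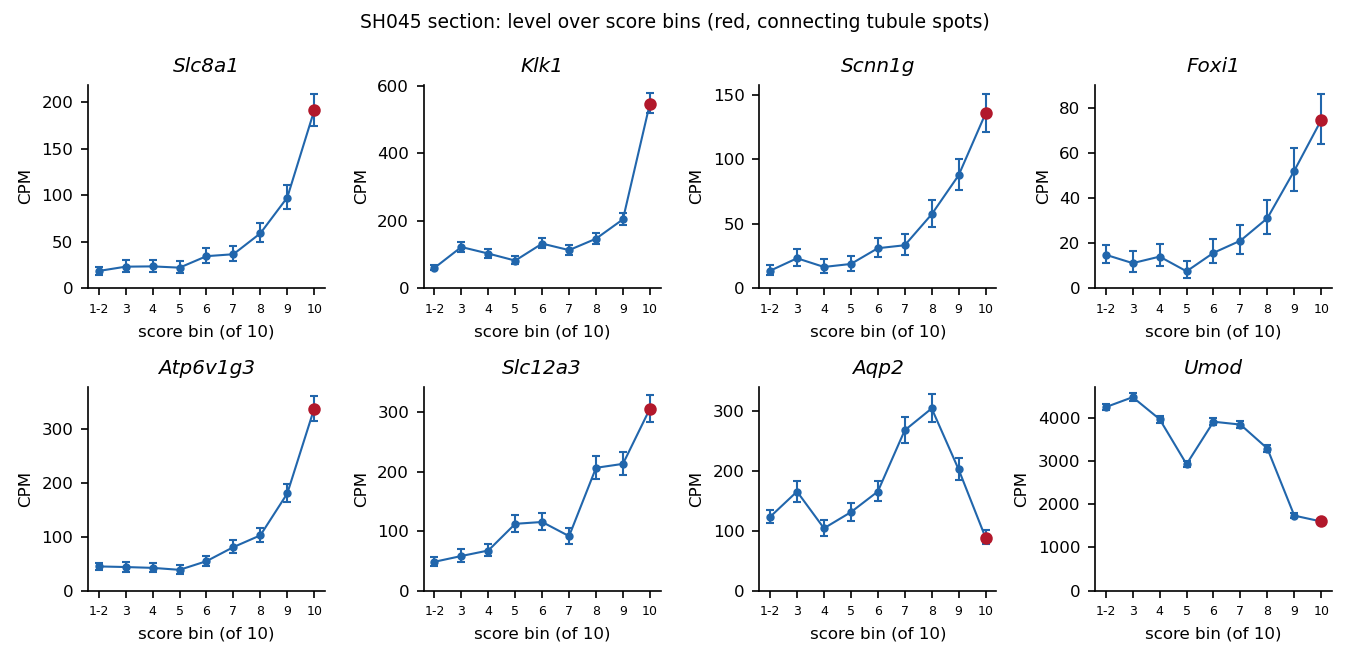
CPM of 8 genes over 10 score bins of the SH045 section, bins 1 and 2 pooled, with exact Poisson 95% intervals (counting error only). The red point is the connecting tubule set. Slc8a1, Klk1, Scnn1g, Foxi1, Atp6v1g3 and Slc12a3 are highest there, Aqp2 is highest in bin 8, and Umod is lowest in bin 10.

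Thick ascending limb, thin limb and proximal straight segment genes were mostly lower. None of the 8 thick ascending limb genes was higher and 5 were lower (background 4.53%), with a median log2 difference of -0.99. Umod ranged from 434 to 16019 CPM (median 1166) over connecting tubule spots, against 171 to 32032 CPM (median 2637) over the remaining spots, and stood at 1599 CPM in connecting tubule and 3590 CPM in remaining spots (-1.17). The sodium-potassium-chloride cotransporter gene Slc12a1 stood at 115 CPM in connecting tubule and 226 CPM in remaining spots (-0.97). The list summed to 638 to 18854 CPM per connecting tubule spot (median 1445) and 441 to 38657 CPM per remaining spot (median 3101). Of the 8 proximal straight segment genes 7 were lower (median -1.74), as were 4 of 6 thin limb and inner medulla genes (median -1.12), among them the water channel gene Aqp1 at 130 CPM in connecting tubule and 369 CPM in remaining spots. The proximal first and second segment list differed less, with 1 of 14 higher, 3 lower and a median of -0.15. The phosphate cotransporter gene Slc34a1 stood at 602 CPM in connecting tubule and 583 CPM in remaining spots. The glucose cotransporter gene Slc5a2 was the higher one, at 114 CPM in connecting tubule and 73.1 CPM in remaining spots. The endocytic receptor gene Lrp2 was lower at 162 CPM in connecting tubule and 251 CPM in remaining spots (-0.63), although it was 0.43 in the block of 3 spots.

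Of 13 measured distal nephron transcription factors, 6 were higher and 3 were lower (background 2.52% and 4.53%). The higher ones were Emx1 (connecting tubule 27.9, remaining 12.8 CPM), Tfap2a (connecting tubule 24.6, remaining 11.4 CPM), Gata2 (connecting tubule 45.5, remaining 19.1 CPM), Gata3, Tfcp2l1 and Mecom (connecting tubule 43.1, remaining 26.6 CPM). The lower ones were Irx1 (connecting tubule 8.62, remaining 22.5 CPM), Irx2 (connecting tubule 11.5, remaining 29.8 CPM) and Irx3 (connecting tubule 27.5, remaining 51.3 CPM), homeobox genes known for patterning the middle segments of the kidney tubule in frogs. The general tubule factor Pax8 (connecting tubule 87.4, remaining 110 CPM) was within 1.5-fold. The list median was 0.55. Among 10 claudins, the tight junction proteins that set which ions pass between cells, 3 were higher and 2 lower (median -0.15), against the same background. Cldn8 (connecting tubule 249, remaining 92.2 CPM, 1.42) and Cldn4 (connecting tubule 326, remaining 143 CPM, 1.19), which form a chloride pathway in the collecting duct, were higher in all 4 blocks. Cldn7 (connecting tubule 245, remaining 162 CPM, 0.59) was -0.02 in the block of 3 spots. Cldn10 (connecting tubule 75.5, remaining 177 CPM) and Cldn19 (connecting tubule 30.8, remaining 86.5 CPM), claudins of the thick ascending limb, were lower.

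The 15 genes with the highest log2 differences among those of at least 20 CPM with the same direction in all blocks, from 2.30 down to 1.54, included Slc8a1, Klk1, Atp6v1g3, Pgam2, Spink8, Tmem52b, Scnn1g, Ltc4s, Foxi1, Ptges, Rhbg, Adamts16, Tgfb2 and Spink12. In all, 131 genes qualified as higher and 198 as lower. Pgam2, the muscle form of a glycolytic mutase, stood at 89.0 CPM in connecting tubule and 18.6 CPM in remaining spots, a fold of 4.77 (4.02 to 5.66). It had no UMI in 10 of 79 connecting tubule spots, against 514 of 709 remaining ones. A pair of enzymes of lipid mediator synthesis were among them. Ptges, a prostaglandin E synthase, stood at 95.6 CPM in connecting tubule and 26.8 CPM in remaining spots, a fold of 3.57 (3.05 to 4.17), and Ltc4s, leukotriene C4 synthase, at 66.1 CPM in connecting tubule and 17.1 CPM in remaining spots, a fold of 3.85 (3.17 to 4.66). Tgfb2, a TGF-beta cytokine, stood at 52.9 CPM in connecting tubule and 17.3 CPM in remaining spots, a fold of 3.06 (2.48 to 3.76). Its median per spot was 34.3 CPM in connecting tubule spots and 0 in the remaining spots.

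The 15 lowest were Alx1, Cyp2d9, Dio2, Serpina1f, Acsm3, Slc4a11, Serpina1d, Serpina1a, Sim2, Slc38a3, Igfbp5, Slc22a19, Scd1, Akr1c14 and Sprr2f, from -2.93 to -1.80. Serpina1f stood at 43.5 CPM in connecting tubule and 206 CPM in remaining spots, a fold of 0.211 (0.172 to 0.256). Its remaining spots reached 1614 CPM, against 323 CPM in the highest connecting tubule spot. Igfbp5, an insulin-like growth factor binding protein gene, stood at 162 CPM in connecting tubule and 609 CPM in remaining spots. Dio2, the thyroxine-activating deiodinase gene, stood at 10.7 CPM in connecting tubule and 56.9 CPM in remaining spots, and Scd1, the stearoyl-CoA desaturase gene, at 73.0 CPM in connecting tubule and 262 CPM in remaining spots. The Serpina1, Cyp2d and Slc22a genes have close relatives, and the counting of their shared reads is uncertain.

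Injury genes of the tubule differed in both directions, with 5 of 24 higher, 5 lower (background 2.52% and 4.53%) and a median of -0.01. Havcr1 (KIM-1), a proximal tubule injury marker, ranged from 133 to 1192 CPM (median 566) over connecting tubule spots and from 0 to 4051 CPM (median 684) over the remaining spots, and stood at 566 CPM in connecting tubule and 1044 CPM in remaining spots. Lcn2 (NGAL) stood at 703 CPM in connecting tubule and 1297 CPM in remaining spots, Cd44 at 47.2 CPM in connecting tubule and 74.7 CPM in remaining spots, and Prom1 at 108 CPM in connecting tubule and 165 CPM in remaining spots. Krt20 was lower at 17.2 CPM in connecting tubule and 44.2 CPM in remaining spots (-1.31), but 0.39 in the block of 3 spots. On the other side, the secreted chaperone gene Clu (clusterin) stood at 11722 CPM in connecting tubule and 5734 CPM in remaining spots (1.03), and the simple epithelial keratin genes Krt18 at 386 CPM in connecting tubule and 193 CPM in remaining spots and Krt7 at 552 CPM in connecting tubule and 302 CPM in remaining spots. Krt8 stood at 905 CPM in connecting tubule and 575 CPM in remaining spots. Spp1 (osteopontin), at 14517 CPM in connecting tubule and 17389 CPM in remaining spots, was within 1.5-fold.

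Markers of cells outside the tubule were mostly within 1.5-fold. The background over all genes was 2.52% higher and 4.53% lower. None of 11 macrophage genes was called (median 0.02), nor any of 7 podocyte genes (0.37), 7 MHC class II genes (0.26) or the 2 measured T, B and plasma cell genes. Of 12 endothelial genes only Cdh5 was called, lower at 40.6 CPM in connecting tubule and 64.3 CPM in remaining spots. Of 13 fibroblast and matrix genes 2 were lower, Col3a1 (connecting tubule 688, remaining 1053 CPM) and Postn (connecting tubule 7.38, remaining 13.9 CPM), and the list summed to a median of 11653 CPM per connecting tubule spot (4285 to 27544) and 11421 CPM per remaining spot (2526 to 53399). Of 5 smooth muscle and pericyte genes Myh11 was higher (connecting tubule 30.8, remaining 19.3 CPM). Of 8 chemokine genes, Cxcl1 (connecting tubule 47.6, remaining 74.4 CPM) and Cxcl12 (connecting tubule 36.1, remaining 94.3 CPM) were lower. Both measured urothelial and stratified epithelial genes, Krt20 and Sprr1a (connecting tubule 71.0, remaining 136 CPM), were lower, and Upk3a and Krt15 had no UMI in the connecting tubule spots. The part of these other cell types in the results was not tested. Of lists that mark no cell type, 2 of 12 immediate early genes were lower and none of 22 nuclear respiratory chain genes was called (median 0.07).

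Renin RNA was concentrated in very few spots. Ren1, which encodes the renin of the juxtaglomerular cells, stood at 757 CPM in connecting tubule and 103 CPM in remaining spots (log2 difference 2.86), but its median per spot was 130 CPM in connecting tubule and 38.4 CPM in remaining spots. A single connecting tubule spot reached 25328 CPM and held 40.6% of the Ren1 UMIs of the set. Without that spot the log2 difference was 2.13. In the blocks it was 3.47, -0.81, 1.197 and 0.04, so the direction of Ren1 was not the same over the section. Iglc1, an immunoglobulin light chain gene named after its values were seen, had 94.4% of its UMIs in the set in 1 spot.

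A further 3 sets of 79 spots were chosen in the same way from markers of neighbouring segments. The distal convoluted tubule set (Slc12a3, Trpm6, Pvalb) shared 26 spots with the connecting tubule set, 32.9% of each, and 36 of its other 53 spots touched a connecting tubule spot. The choice of that set rested mainly on Slc12a3, at 743 CPM in it, since Trpm6 was low and Pvalb below 10 CPM over the section. The median distance of the set from the edge was also 3 steps. The collecting duct principal set (Aqp2, Aqp3, Fxyd4) shared 2 spots and the thick ascending limb set (Umod, Slc12a1, Cldn16) 1, and both had a median distance of 7 steps. Slc8a1 stood at 191 CPM in the connecting tubule set, at 115 CPM in the distal convoluted tubule set, at 35.8 CPM in the collecting duct set and at 24.5 CPM in the thick ascending limb set. Atp6v1g3 stood at 338, 107, 189 and 61.0 CPM and Scnn1g at 135, 63.7, 95.8 and 31.3 CPM in the same order of sets. The other ENaC subunits set the connecting tubule set less apart. In that order Scnn1b stood at 174, 113, 172 and 63.6 CPM and Scnn1a at 103, 90.9, 90.3 and 59.4 CPM. Hsd11b2 was instead highest in the collecting duct set, at 527 CPM, against 275 CPM in the connecting tubule set. Gata2 was also highest there, at 57.0 CPM against 45.5 CPM. Several genes were about as high in the distal convoluted tubule set, where Tmem52b stood at 382 CPM, Pgam2 at 85.7 CPM, Kcnj10 at 65.3 CPM and Slc4a9 at 53.3 CPM. In the connecting tubule set Tmem52b stood at 345 CPM, Pgam2 at 89.0 CPM, Kcnj10 at 59.1 CPM and Slc4a9 at 49.6 CPM. Other genes of the calcium and magnesium list were not far below in the distal convoluted tubule set. Kl stood there at 181 CPM, Trpv6 at 33.2 CPM, Atp2b4 at 32.0 CPM and Klk1 at 416 CPM. The connecting tubule set had 213, 39.4, 43.1 and 548 CPM of these genes. The sets share spots, so these levels are a description.

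The connecting tubule spots were not uniform. The 26 that also belonged to the distal convoluted tubule set lay a median of 4 steps from the edge, against 2 for the other 53. Klk1 stood at 1027 CPM in the 26 and 325 CPM in the 53, a fold of 3.16 (2.83 to 3.54). Calb1 stood at 204 CPM in the 26 and 83.6 CPM in the 53, Tmem52b at 537 CPM in the 26 and 255 CPM in the 53, and Kl at 292 CPM in the 26 and 176 CPM in the 53. The intercalated cell genes ran the other way, with Atp6v1g3 at 191 CPM in the 26 and 407 CPM in the 53, a fold of 0.470 (0.391 to 0.562), and Foxi1 at 42.6 CPM in the 26 and 89.6 CPM in the 53. Tgfb2 (29.7 CPM in the 26, 63.7 CPM in the 53), Hsd11b2 (196 CPM in the 26, 311 CPM in the 53) and Aqp2 (54.3 CPM in the 26, 105 CPM in the 53) were also lower in the 26. Slc8a1 stood at 207 CPM in the 26 and 184 CPM in the 53, a fold of 1.12 (0.922 to 1.36), and Scnn1b at 178 CPM in the 26 and 172 CPM in the 53. The folds of the other ENaC subunits were 1.32 (1.01 to 1.72) for Scnn1a and 0.794 (0.615 to 1.02) for Scnn1g. Of the other defining genes, Trpv5 was at 262 CPM in the 26 and 329 CPM in the 53, and S100g at 938 CPM in the 26 and 705 CPM in the 53. Ren1 stood at 1350 CPM in the 26 and 482 CPM in the 53, and its part was not tested. The level in the 26 includes the single spot highest in Ren1, which held a large part of the Ren1 UMIs of the set. This difference is therefore not one of the 26 spots as a group, and it was not computed without that spot. Across the 79 spots, thinned to 5000 UMIs each, Pearson correlations over 10 gene pairs were weak, from -0.05 (Trpv5 with Calb1) to 0.31 (S100g with Calb1). Both ends are pairs of defining genes, whose sum chose the spots, so the choice shapes those correlations. Pairs without a defining gene ran from -0.04 (Slc8a1 with Atp6v1g3) to 0.18 (Atp6v1g3 with Foxi1). All pairs share libraries and low counts, and the correlations are given as a description.

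The same rule applied to the section labelled Vehicle took 66 of 659 spots. Its threshold was 25634 per 1000000 UMIs, against 601 in the SH045 section, and levels in the 2 sections are given side by side without a test. In the 66 spots S100g stood at 37597 CPM, against 6213 CPM in the remaining 593. Calb1 stood at 4197 CPM in the 66 and 990 CPM in the 593 and Trpv5 at 48.6 CPM in the 66 and 6.95 CPM in the 593, the last from 21 and 27 UMIs. The score there was thus mostly S100g. Chosen without its own UMIs, S100g had a fold of 5.37 (5.26 to 5.48), Calb1 of 4.15 (3.93 to 4.395) and Trpv5 of 6.996 (3.76 to 12.8). In block 2 of that section Trpv5 had 0 UMIs in the 15 chosen spots and 4 in the others. Klk1 stood at 69711 CPM in the 66 and 4654 CPM in the 593, Slc8a1 at 887 CPM in the 66 and 201 CPM in the 593, Scnn1g at 306 CPM in the 66 and 51.7 CPM in the 593, and Atp6v1g3 at 1963 CPM in the 66 and 388 CPM in the 593. Those 4 genes were higher in the connecting tubule spots of both sections. Slc12a3, at 824 CPM in the 66 and 722 CPM in the 593 (log2 difference 0.19), was within 1.5-fold there, against 1.48 in the SH045 section. The spots lay a median of 6.5 steps from the border of the deposited spots, against 4 for the remaining spots. That border is not the outline of the flagged tissue there, so their distance from the rim is not known. Mitochondrially encoded genes took 4.07% of UMIs in the 66 spots and 11.1% in the 593. Median UMI counts were 5953 in the 66 and 4894 in the 593.

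In the section labelled Vehicle 1620 of 8201 tested genes were higher (19.8%) and 1617 lower (19.7%), a much larger background than in the SH045 section. Its 66 connecting tubule spots held 431953 UMIs, against 2437470 in the 79 of SH045, so its counts per gene are smaller. The part of counting error in its calls was not tested. Of the 257 genes higher in SH045, 166 were tested in the section labelled Vehicle and 128 were higher there (77.1% of those tested), while 5 were lower. Of the 462 lower genes, 280 were tested, 215 were lower (76.8%) and 20 higher. As a share of the section labelled Vehicle, the shared calls were 8.30% of its tested higher genes and 14.2% of its tested lower genes. Among the 15 highest genes 12 were tested there and all 12 were higher, and among the 15 lowest 6 were tested and 4 were lower. Among lists with at least 4 measured members the intercalated list had the highest median in both sections, 1.43 in SH045 and 1.85 in the section labelled Vehicle. The lists of the proximal first and second segments (SH045 -0.15, Vehicle -1.47), of aldosterone-sensitive transport (SH045 0.20, Vehicle 1.46) and of fibroblast and matrix genes (SH045 -0.19, Vehicle 0.81) had the medians that lay farthest apart among these lists. The median over all tested genes was -0.0020 in SH045 and 0.05 in the section labelled Vehicle.

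**Figure D5:**
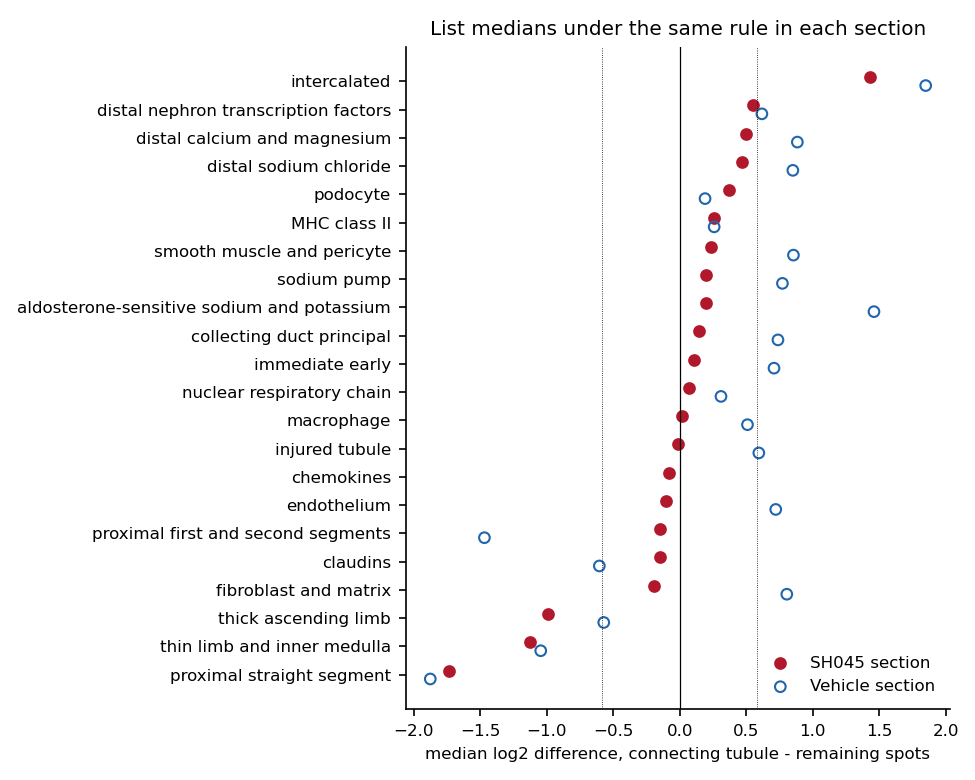
Median log2 difference, connecting tubule minus remaining spots, of each gene list with at least 4 measured members, in the SH045 section (filled) and in the section labelled Vehicle (open), with dotted lines at 1.5-fold. The intercalated list is at the top in both sections, at 1.43 for SH045 and 1.85 for Vehicle, and the proximal straight segment list at the bottom, at -1.74 for SH045 and -1.88 for Vehicle.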

How the data were processed

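The deposited files hold UMI counts per gene and spot, made by the authors with Space Ranger 2.0.1 per the file headers, on mm10 per the submitters' processing notes. The annotation release and alignment settings: not given in the sources used here. The deposited positions tables (other values: grid row, column and tissue flag) gave each spot's place. Groups come from the treatment in the labels.

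Counts were summed over spots and scaled to CPM with Python 3.11.15, numpy 2.4.6, scipy 1.17.1 and pandas 2.3.3, and plotted with matplotlib 3.10.9. Spots under 1000 UMIs were left out (2 in SH045, 17 in the section labelled Vehicle). No doublet caller was run, since a spot is not a cell. The sections share 335 spot barcodes, which are positions of the same slide design. Blocks are 4 parts of a section by position, of similar spot number. CPM intervals are exact Poisson ones, folds have exact conditional binomial ones at 95%, and they cover counting error only. The contrast and its intervals were tested on simulated data.

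The connecting tubule spots, the 25 gene lists and the rules were chosen with earlier results of these data known. Named genes are the 15 highest and 15 lowest (at least 20 CPM, 1.5-fold, same direction in all 4 blocks, without mitochondrially encoded, ribosomal protein, haemoglobin, immunoglobulin and predicted genes), all members of the 3 distal transport lists with at least 10 CPM, and the 3 highest members of every other list. Other genes are named as list members that were called or that fill out a list, and were chosen after their values were seen. Some genes that these rules name are not reported here. Positions are RefSeq's on GRCm38.p6, matched by symbol for all 117 named genes.

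Alternatives were other score percentiles (80 and 95), a minimum of 5000 UMIs, scores without each gene, thinning to 5000 UMIs, means of spot CPM, matched remaining spots, blocks, filters of 50 CPM and none, and a pseudocount of 0.1. Left out after seeing the data were the spot highest in Ren1, the block of 3 spots and Vehicle spots without the tissue flag.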

Additional observations from a re-analysis of the deposited data

Results flagged for a closer look

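Aqp2, the water channel of principal cells, was lower in the connecting tubule spots of the SH045 section, with a log2 difference of -0.99, and higher in those of the section labelled Vehicle, with 0.74. The effects under the same contrast thus ran in opposite directions in the 2 sections, and the difference was not tested. In the SH045 section Aqp2 was lower in all 4 blocks, but 0.23 when spots were scored without S100g.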

How the results depend on the processing

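No paired analysis was possible because each group holds 1 section.

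The 257 higher and 462 lower genes became 787, 672, 522 and 2023 higher and 866, 1013, 808 and 2628 lower within blocks 1 to 4, which hold fewer UMIs. A filter of 50 CPM left 64 and 154, no filter gave 981 and 1357, thinning before scoring, which chose 111 spots in place of 79, gave 170 higher, and the 95th percentile gave 718 lower. The summed level of the 3 distal transport lists, 1.74-fold, was 1.61 at the 80th and 1.88 at the 95th percentile, 1.69 scored without Trpv5, 1.56 after thinning, 1.80 as a mean of spot CPM, 1.87 against remaining spots that touch none, 1.70 against spots matched on UMIs, 1.69, 1.70, 1.49 and 2.42 within the blocks, and 1.64 without the block of 3 spots. The held-out folds within blocks 1 to 4 were 3.12, 5.83, 3.77 and 10.7 for Trpv5, 4.93, 9.58, 4.46 and 33.5 for S100g, and 4.44, 12.1, 3.17 and 8.10 for Calb1. The S100g fold was 5.70 at the 80th and the Calb1 fold 7.89 at the 95th percentile. Every one of these kept its direction. The summed level of the 3 lists includes Klk1, whose count is uncertain.

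Directions turned for Wnk4 (-0.21 in block 3), Aqp2 (0.23 scored without S100g), Lrp2 (0.43), Krt20 (0.39) and Cldn7 (-0.023) in block 4, and Ren1 and the median of the renin list (-0.81 in block 2); the cause was not tested. Of the alternative values of named genes, 1873 stayed within the half-width of the counting interval around the reported value. A further 578 moved beyond it without turning a called direction, and 6 turned. Only spots of the section labelled Vehicle with the tissue flag gave 1602 higher and 1793 lower genes there. Counting depth limits single genes in the block of 3 spots, and values of Trpv5 in the section labelled Vehicle rest on 21 and 27 UMIs.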
